A study of Mus musculus with 19 samples.

Results

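The genes described are 9 serotonin receptors, Htr1a, Htr1b, Htr1f, Htr2a, Htr2c, Htr3a, Htr4, Htr5a and Htr7, taken by name from 24130 Ensembl genes with an entry in 1 or more libraries of mouse primary somatosensory cortex (S1). The cortex of male C57BL/6J mice, 56 days old, had been cut by eye into 6 segments. Layers 1 to 3 made up most of segment A, layer 4 of B, the upper and lower parts of layer 5 of C and D, layer 6 of E and layer 6b of F. Polyadenylated RNA was sequenced in 7 libraries, of which A, C, D, E and F each pooled 8 mice and B1 and B2 each pooled the 4 mice of a litter. Only segment B therefore has replicates (n = 2), the segments of the pools come from the same animals, and the dissections overlap their neighbours. Values are FPKM, fragments per kilobase of gene model scaled to the number of mapped fragments, each with the 95% interval that the authors' software gave for the estimate within a library. The interval holds no variation between mice.

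Serotonin reaches the cortex in fibres from the raphe nuclei of the brainstem. It acts there on a family of receptors that differ in their coupling. Htr1a, Htr1b, Htr1f and Htr5a encode receptors that couple to Gi/o proteins, which lower cyclic AMP and, for Htr1a, open potassium channels, and are grouped here as inhibitory. Htr2a and Htr2c encode Gq-coupled receptors and Htr4 and Htr7 Gs-coupled receptors, grouped as excitatory. Htr3a encodes a subunit of the only serotonin receptor that is an ion channel, and in the cortex it is known as a marker of a class of interneurons. This grouping is one of coupling, and says nothing of the cells that carry a receptor. In these bulk libraries, fewer cells of a type and less RNA per cell cannot be told apart.

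Worked back from coverage and FPKM, the libraries hold an estimated 31.3 M (A) to 74.9 M (B2) fragments. The estimate for F is an upper value. The paper gives a minimum of sequenced fragments per sample, a different measure, which lies above several of these estimates. Markers of the layers set upper segments apart from deep ones, but did not all peak in the segment of their layer. Cux2 of the upper layers was highest in B1, at 43.5 FPKM against 37.9 in A, and Fezf2 of layer 5 in C. Tle4 of layer 6 was highest in F, at 39.8 FPKM against 35.0 in E, as was Ctgf of layer 6b. Mitochondrial genes made up 21.8% of the summed FPKM in A and 18.2% in B2, against 5.03% to 9.79% in the rest. The replicates of B thus differed, with 7.76% in B1. Library A stands apart in its summed FPKM for 5 meninges markers, 32.8 against at most 6.81 elsewhere. Of the 9 receptors, 6 were lowest in A, so folds against A are also given without it. The part of these differences between libraries in the values below was not tested.

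The promoter sequences shown here were chosen for the levels that follow: Htr1a and Htr1f rose with depth side by side as far as lower layer 5, while Htr7 fell from layer 4 to layer 6. They are RefSeq windows of 300 bases in GRCm38.p6, from 250 bases before to 50 after the annotated start, whereas the expression files use mm9. Capitals mark matches on either strand to one of 4 motifs. They are the GC box GGGCGG, the TATA box TATAAA, the core of the cyclic AMP response element, TGACG, and the nuclear receptor element AGGTCA.
Htr1a, chr13:105443443-105443742, plus strand: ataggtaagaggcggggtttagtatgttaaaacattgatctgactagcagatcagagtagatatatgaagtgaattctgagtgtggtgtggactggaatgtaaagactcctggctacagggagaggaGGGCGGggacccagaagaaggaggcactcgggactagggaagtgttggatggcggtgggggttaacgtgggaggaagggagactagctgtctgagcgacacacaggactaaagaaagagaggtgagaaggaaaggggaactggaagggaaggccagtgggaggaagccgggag
Htr1f, chr16:65105735-65106034, minus strand: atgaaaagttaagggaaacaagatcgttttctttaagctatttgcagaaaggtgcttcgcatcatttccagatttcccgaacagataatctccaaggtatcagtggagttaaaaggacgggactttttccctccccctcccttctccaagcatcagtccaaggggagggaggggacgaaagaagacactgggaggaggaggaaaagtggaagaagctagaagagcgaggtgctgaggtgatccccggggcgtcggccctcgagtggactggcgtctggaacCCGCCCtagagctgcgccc
Htr7, chr19:36057311-36057610, minus strand: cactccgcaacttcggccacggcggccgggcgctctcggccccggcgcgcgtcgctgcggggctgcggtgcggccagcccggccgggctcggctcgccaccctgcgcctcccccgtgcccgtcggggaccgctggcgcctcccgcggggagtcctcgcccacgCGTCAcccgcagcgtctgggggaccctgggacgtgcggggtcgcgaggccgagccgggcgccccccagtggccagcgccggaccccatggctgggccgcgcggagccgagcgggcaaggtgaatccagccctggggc
The windows of Htr1a and Htr1f each hold 1 GC box, and that of Htr7 holds 1 TGACG and no GC box. GGGCGG stands in 35.7% of all 32851 promoter windows of this length, against 20.8% for TGACG and 16.3% for the nuclear receptor element. The Htr7 window is 81.0% G and C with 46 CpG dinucleotides, against medians of 52.7% and 7 over all windows, and those of Htr1a and Htr1f have 52.3% and 53.0% G and C. Windows of 7 of the 9 receptors were searched, and none of Htr3a or Htr4. Besides these, the window of Htr2a holds 1 GC box and that of Htr2c 1 AGGTCA, and those of Htr1b and Htr5a hold none of the 4 motifs. TATAAA was in none of the 7 windows and is in 13.6% of all windows. A match is a run of letters and not a site shown to be bound.

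The inhibitory receptor Htr1a, an autoreceptor of raphe neurons that also stands on cortical pyramidal cells, had most of its transcript in the deep layers. Htr1a (ENSMUSG00000021721, chr13:106233843-106238196 of mm9) had 1.09 FPKM in A, 3.20 and 2.89 in B1 and B2, 6.08 and 6.86 in C and D, and 6.33 and 4.69 in E and F. It rose at each step from A to D by nonoverlapping intervals, stayed level within the intervals from D to E and fell from E to F. D was 6.32-fold above A, and 2.37-fold above B2, the lowest library when A was left out. The replicates of layer 4 overlapped, and their mean was 3.05 ± 0.218 FPKM (SD, n = 2).

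Htr1f, a Gi-coupled receptor known as a target of antimigraine drugs, had the largest range of the 9 with A included. Htr1f (ENSMUSG00000050783, chr16:64924555-65105680 of mm9) had 0.130 FPKM in A, 0.717 and 0.636 in B1 and B2, 1.84 and 2.61 in C and D, and 3.11 and 2.63 in E and F. It rose at each step from A to D, and D, E and F overlapped one another. E was 23.9-fold above A and 4.89-fold above B2. The value in A rests on an estimated 10.5 fragments, with an interval from 0.0630 to 0.198 FPKM.

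Htr1b, best known as a receptor on axon terminals, was instead centred on layer 5. Htr1b (ENSMUSG00000049511, chr9:81524999-81526159 of mm9) had 0.259 FPKM in A, 0.848 and 0.806 in B1 and B2, 2.28 and 1.92 in C and D, and 0.691 and 0.535 in E and F. C and D overlapped, and both lay above all other libraries. C was 8.80-fold above A, where the value rests on an estimated 9.95 fragments, and 4.26-fold above F, the lowest without A. The gene model covers only 1161 bases and overlaps an unnamed gene on the opposite strand, ENSMUSG00000085832, which had 0.284 FPKM in A, 0.631 in C and 0.341 in F. The libraries do not mark strand, so reads of the 2 genes cannot be told apart where they overlap.

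Htr5a, a Gi-coupled receptor found mainly in the brain, had the flattest profile. Htr5a (ENSMUSG00000039106, chr5:28168487-28181626 of mm9) had 1.86 FPKM in A, 4.83 and 4.13 in B1 and B2, 5.04 and 4.33 in C and D, and 4.19 and 2.93 in E and F. C was 2.72-fold above A and 1.72-fold above F. B1 and B2 did not overlap, C overlapped B1 and D overlapped B2 and E.

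Of the excitatory receptors, Htr2a was the most abundant, and was the highest of all 9 genes in every library but A. This Gq-coupled receptor is the main target of the classical hallucinogens, and in the cortex is known from apical dendrites of layer 5 pyramidal cells. Htr2a (ENSMUSG00000034997, chr14:75040647-75106666 of mm9) had 0.671 FPKM in A, 9.53 and 8.04 in B1 and B2, 13.3 and 10.4 in C and D, and 6.82 and 8.20 in E and F. C lay above every other library. C was 19.8-fold above A, but among the other 6 libraries the range was 1.95-fold, from C to E. From D to E it fell and from E to F it rose by nonoverlapping intervals, and B1 and B2 did not overlap either.

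Htr2c, the second Gq-coupled receptor, whose transcript is edited and is known for its very high level in choroid plexus, was highest in layer 5. Htr2c (ENSMUSG00000041380, chrX:143397056-143631820 of mm9) had 0.311 FPKM in A, 0.613 and 0.729 in B1 and B2, 1.78 and 1.90 in C and D, and 1.11 and 1.20 in E and F. The intervals of C, D, E and F overlapped, and C stood clear of A, B1 and B2. The width of the interval was 20.0% of the FPKM in C, where 1 transcript was listed, and 99.5% in D, where 3 were. The summed FPKM of the choroid plexus markers, mostly Ttr, was 27.4 in A, 1.45 and 1.86 in B1 and B2, 1.49 and 8.24 in C and D, and 67.3 and 203 in E and F. The part of these markers in the Htr2c values was not tested.

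Htr4, a Gs-coupled receptor, was the lowest of the 9 genes in every library, though its interval overlapped those of Htr1b and Htr1f in A and that of Htr3a in C. It had 0.0659 FPKM in A, 0.0354 and 0.0225 in B1 and B2, 0.201 and 0.299 in C and D, and 0.113 and 0.0846 in E and F. D exceeded B1 and B2 by its interval, and no step between neighbouring segments was called. The values rest on an estimated 4.50 to 35.0 fragments, so differences among most segments were not detectable at this depth.

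Htr7, the other Gs-coupled receptor, was highest in layer 4 and fell through layers 5 and 6. Htr7 (ENSMUSG00000024798, chr19:36033224-36131850 of mm9) had 3.35 FPKM in A, 4.69 and 4.46 in B1 and B2, 2.96 and 1.53 in C and D, and 1.07 and 1.85 in E and F. B1 and B2 overlapped and lay above every other library. It fell at each of the steps from B to E and rose from E to F. B1 was 4.39-fold above E, and A plays no part in this fold.

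Htr3a, the ion channel subunit, had a profile with 2 ends. Htr3a (ENSMUSG00000032269, chr9:48707773-48719081 of mm9) had 2.09 FPKM in A, 1.05 and 0.829 in B1 and B2, 0.212 and 0.691 in C and D, and 0.930 and 1.71 in E and F. A and F overlapped and lay above the other libraries, and C lay below all of them. A was 9.87-fold above C and F was 8.07-fold above C. The value in C rests on an estimated 9.50 fragments, with an interval from 0.103 to 0.322 FPKM.

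**Figure D1:**
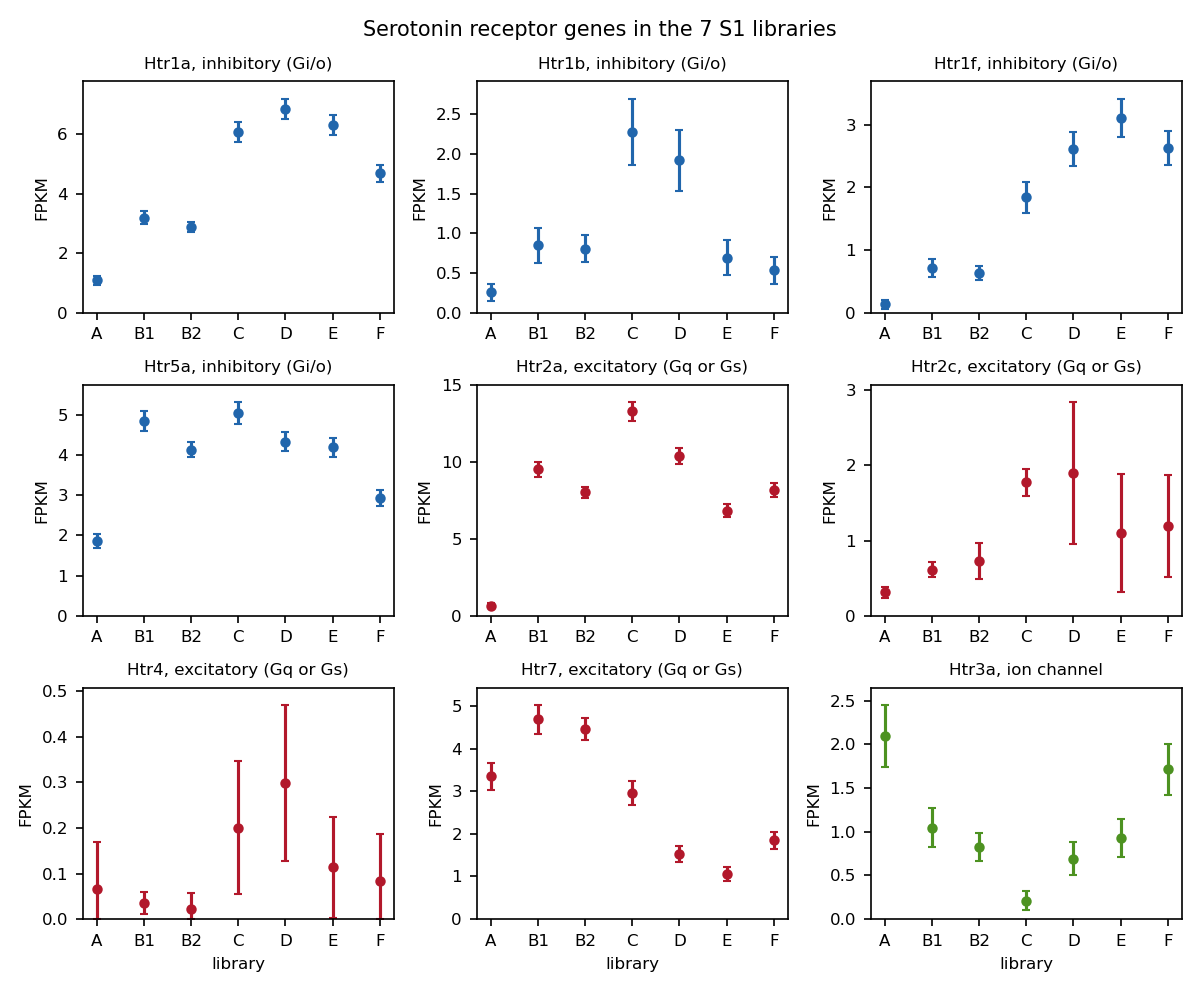
Level of the 9 receptor genes (FPKM, linear axes from 0, each panel with its own scale) in the 7 libraries, with points for the deposited estimate and bars for its 95% interval, which holds no variation between mice. Htr1f runs from 0.130 in A to 3.11 in E, Htr7 from 4.69 in B1 to 1.07 in E, and Htr3a is lowest in C at 0.212.

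**Figure D2:**
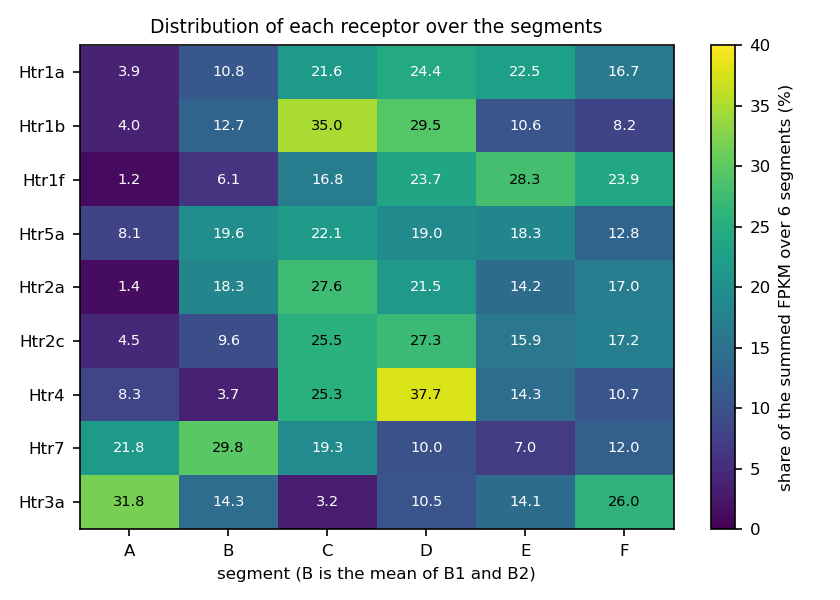
Share of each gene's FPKM, summed over the 6 segments, that falls in each segment (percent, printed in the cells, B1 and B2 averaged as B). Htr1b holds 35.0% in C, Htr7 29.8% in B, Htr1f 28.3% in E and Htr3a 31.8% in A and 26.0% in F.

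To ask which of these profiles followed depth, a linear and a quadratic term in segment position were fitted to log2(FPKM + 0.1) with limma. The fit covered the 17844 genes that averaged 0.1 FPKM or more. Its p compares the fitted curve with the scatter of the libraries around it, which includes departures of the segments from that curve. Of the 9 receptors, 7 had a depth trend at an adjusted p of 0.05, where 34.5% of all genes tested had one. They were all 4 inhibitory genes, Htr2a, Htr2c and Htr3a. F was fitted above A in 6 of them and below in 1, against 27.0% and 7.54% of all genes tested. The sign of this difference turned when A, B1 or F was left out in 4 of the 7, Htr1b, Htr5a, Htr2a and Htr3a. Without A or F, the difference extends the fitted curve to a segment with no library, and is not a measured one. The strongest were Htr1f, with limma adjusted p = 0.00203 (Benjamini-Hochberg), and Htr1a, with adjusted p = 0.00426. The fitted difference of F from A was 3.49 ± 0.20 (SE) on the log2 scale for Htr1f and 1.90 ± 0.21 for Htr1a. Htr2c had 1.55 ± 0.36 (limma adjusted p = 0.0164), and Htr2a had 1.94 ± 0.81 (adjusted p = 0.0474). The value of Htr2a rests on library A, without which it was -0.08 (limma adjusted p = 0.568). Without F it was -0.38, and the trend was still called (limma adjusted p = 0.0254).
With the linear term alone Htr1f was the only receptor to pass, against 12.9% of all genes. In the other 3 genes with a trend the fitted ends lay close together. F differed from A by 0.51 ± 0.43 on the log2 scale for Htr1b (limma adjusted p = 0.0174), which peaked in layer 5. For Htr5a the difference was 0.28 ± 0.29 (limma adjusted p = 0.0429), and for Htr3a, lowest in layer 5, it was -0.09 ± 0.52 (adjusted p = 0.0410). Htr7 did not pass, with -1.75 ± 0.52 (limma adjusted p = 0.0814), and Htr4 did not, with 0.71 ± 0.53 (adjusted p = 0.259).
The median over the 9 receptors was 0.71 and that over all genes was 0.39, which rescaling by the median of ratios moved to -0.00. Relative to that median of all genes, the difference of F from A was 3.11 for Htr1f, 1.51 for Htr1a, 0.12 for Htr1b, -0.10 for Htr5a and -2.13 for Htr7. After this rescaling 54.5% of the calls over all genes were higher in F, against 78.2% as deposited. It left 5 of the 9 receptors with a trend, against 25.9% of all genes tested.
The count of 7 receptors fell to 3 without library A, 4 without B2, 2 without D and 4 without E, where the share of all genes with a trend was 7.25%, 25.8%, 20.2% and 19.2%. Without A the 3 were Htr1a, Htr1f and Htr7, and Htr7 is not among the 7. With log2(FPKM + 0.01) it was 4, against 31.4% of all genes. Htr1f passed in 17 of the 18 alternatives and Htr1a in 16, Htr1b in 13 of 17 and Htr2c in 12 of 17. By contrast, Htr2a passed in 6 of 18, Htr5a in 5 of 18 and Htr3a in 6 of 17.

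The intervals give a second view, without a p. The highest and lowest libraries did not overlap in 9 of 9 receptors, but 90.3% of all genes tested also met this, so the count says little of the receptors. Of the 45 steps between neighbouring segments, 29 were called, against 33.6% of such steps over all genes. With the intervals widened 2 times 18 were, against 18.6%. Between B1 and B2, replicates of 1 segment, 2 of 9 receptors did not overlap, Htr5a and Htr2a, where 48.5% of all genes did not.
From A to B, 7 receptors rose and Htr3a fell, where 29.8% of all genes rose and 19.8% fell. From B to C, Htr1a, Htr1b, Htr1f, Htr2a and Htr2c rose (19.9% of all genes) and Htr7 and Htr3a fell (5.23%). Within layer 5, from C to D, Htr1a, Htr1f and Htr3a rose (12.4%) while Htr5a, Htr2a and Htr7 fell (10.2%). From D to E no receptor rose (19.1%) and Htr1b, Htr2a and Htr7 fell (11.8%). From E to F, Htr2a, Htr7 and Htr3a rose (22.5%) and Htr1a and Htr5a fell (17.1%). Both Gq-coupled genes and 3 of the 4 inhibitory genes thus rose from layer 4 to upper layer 5.

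The order of the receptors differed between the segments. In A, Htr7 was highest with 34.1% of the summed FPKM of the 9 genes, followed by Htr3a and Htr5a, whose intervals overlapped. In B1 and B2, Htr2a was followed by Htr5a and Htr7, which overlapped in both libraries. In C, D, E and F the order began with Htr2a, Htr1a and Htr5a. Htr2a and Htr1a overlapped in E, where they held 28.0% and 26.0%. Htr1f was 8th of 9 in A and 4th in D, E and F.

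Grouped by coupling, the inhibitory genes took a larger share with depth from layer 4 to layer 6. Their summed FPKM changed little from C through D to E, at 15.2, 15.7 and 14.3, while that of the excitatory genes went from 18.2 to 14.1 and 9.11. They held 33.9% of the receptor FPKM in A (interval 31.4% to 36.4%, carried from the deposited intervals), 37.6% and 37.5% in B1 and B2, 45.2% and 51.5% in C and D, 58.8% in E (56.3% to 61.2%) and 45.3% in F. In B the mean was 37.6% ± 0.0582 (SD, n = 2). The carried intervals of B1 (36.2% to 39.0%) and B2 (36.3% to 38.8%) overlapped that of A. The excitatory genes held 44.8% in A, 58.3% and 58.8% in B1 and B2, 54.1% and 46.2% in C and D, and 37.4% and 47.5% in E and F. Htr3a made up the rest, 21.3% in A, at most 4.10% in B to E and 7.19% in F.
The ratio of inhibitory to excitatory FPKM was thus lowest in B2, at 0.639 against 0.757 in A, and highest in E, at 1.57. It was above 1 in D, at 1.12, and in E. The sums of both classes overlapped by their carried intervals in D, 15.7 ± 0.632 against 14.1 ± 1.10 FPKM, and in F, 10.8 ± 0.469 against 11.3 ± 0.845, but not in E, 14.3 ± 0.560 against 9.11 ± 0.912. A share does not depend on the scale of a library. E kept the highest inhibitory share when each gene was left out in turn. The lowest moved from A to B1 without Htr7, with 46.1% in B1 and 51.5% in A, and to B2 without Htr3a, with 39.0% in B2 and 43.1% in A. Summed over the classes, receptor FPKM was 9.82 in A, 25.5 and 22.5 in B1 and B2, 33.7 and 30.5 in C and D, and 24.4 and 23.8 in E and F.

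**Figure D3:**
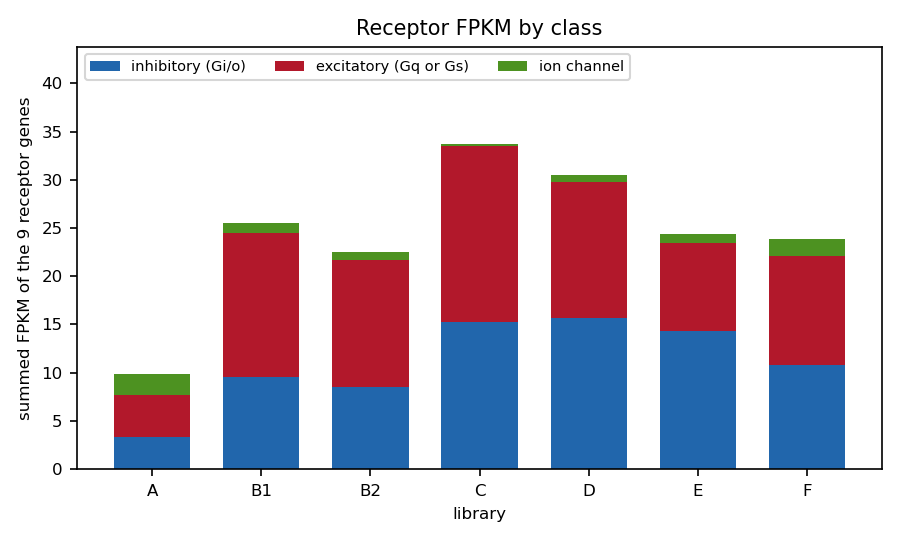
Summed FPKM of the inhibitory, excitatory and ion channel receptor genes (stacked bars from 0) in each of the 7 libraries. The inhibitory part exceeds the excitatory part in D and E, 15.7 against 14.1 and 14.3 against 9.11, and the total is highest in C at 33.7.

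Over the 7 libraries, log2(FPKM + 0.1) of Htr1a had a Pearson r of 0.965 with Htr1f and 0.944 with Htr2c. Htr7 had an r of -0.740 with Htr1f, and Htr3a had -0.908 with Htr1b. These are descriptions over libraries that share their animals, and carry no p. Among 10143 or 10144 other genes with a mean of 1 FPKM or more and an interval of at most 50% of it, a profile much like that of Htr1f was found in Dkk3 (r = 0.997). Those most like Htr1a were Slc24a2 (r = 0.997) and Exoc4 (r = 0.997), and those most like Htr7 were Barx2 (r = 0.978) and Tspan11 (r = 0.975). For Htr3a they were Rflnb (r = 0.961) and Zdhhc14 (r = 0.952), and for Htr1b Gm13205 (r = 0.995) and Trpc4 (r = 0.986). Htr2a was most like Abca1 (r = 0.994) and Tmem47 (r = 0.992), Htr2c like Slc20a1 (r = 0.995) and Nrip3 (r = 0.993), Htr5a like Ptprk (r = 0.996) and Kcnq3 (r = 0.995), and Htr4 like St8sia5 (r = 0.962) and Sult2b1 (r = 0.958). With 7 points and so many candidates, high values of r are reached by choice.

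Markers of cells and neighbouring tissue were set beside the receptors they could touch. For Htr3a, 9 of 14 interneuron markers had a depth trend, against 34.5% of all genes, and of the 14 Adarb2 alone was also lowest in C, with 1.09 FPKM against 1.10 in D. Of the markers known from Htr3a interneurons, Vip had 15.2 FPKM in A, 9.60 in C and 5.32 in F, and Calb2 had 5.23, 2.55 and 2.85. Adarb2 had 1.63, 1.09 and 2.22 FPKM in these 3 libraries, Prox1 1.04, 1.09 and 5.63, and Reln 2.14, 6.05 and 1.65. On the same list, Npy had 211, 117 and 156 FPKM in A, C and F, Lamp5 258, 124 and 29.8, and Ndnf 0.531, 0.526 and 0.497. The part of these markers in the profile of Htr3a was not tested.
Htr1b and Htr4 are known from the striatum. The summed FPKM of 5 striatum markers was 5.37 in C and 7.53 in D, where these 2 receptors were highest. It was 33.0 in F, where Htr1b and Htr4 had 0.535 and 0.0846 FPKM. The part of striatal tissue in these values was not tested. Oligodendrocyte markers rose from a sum of 283 FPKM in A to 11413 in F, and their part in the lower Htr1a and Htr5a of F was not tested. Hippocampus markers summed to at most 4.89 FPKM in any library.

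**Figure D4:**
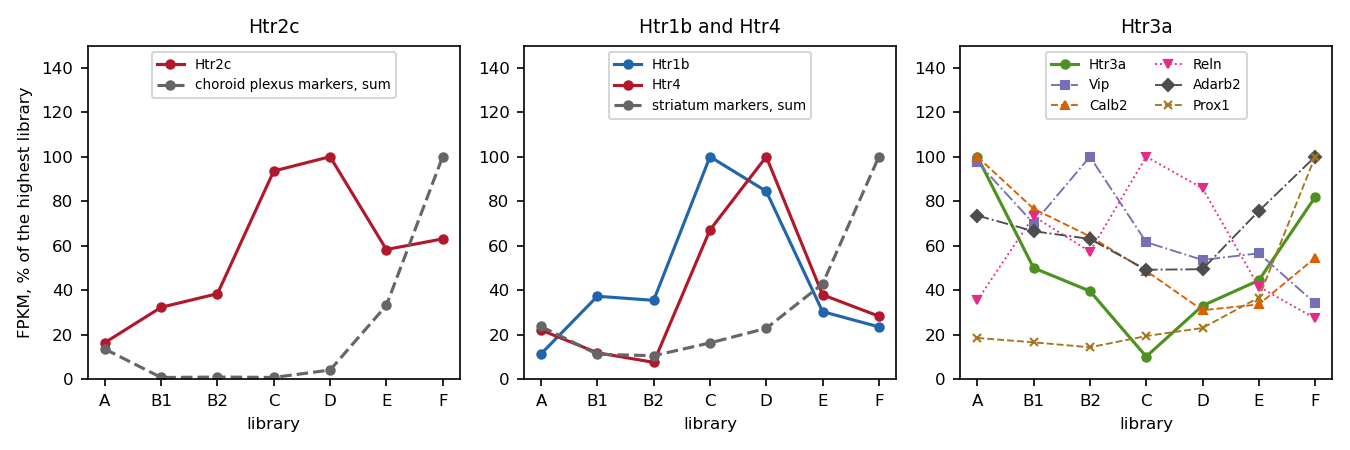
FPKM in the 7 libraries as a percentage of the highest library, for Htr2c with the sum of the choroid plexus markers, Htr1b and Htr4 with the sum of the striatum markers, and Htr3a with 5 interneuron markers. The choroid plexus and striatum sums are highest in F, at 203 and 33.0 FPKM. Htr2c and Htr4 are highest in D and Htr1b in C. The part of these tissues in the receptor values was not tested.

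The other genes of the serotonin pathway were taken from a list of 41, of which 37 passed the limit on mean FPKM. A depth trend was called for 15 of them by limma, 40.5% against 34.5% of all genes. F was fitted above A in 13 and below in 2, where 78.2% of the calls over all genes were higher in F. Leaving out library A reduced the count of pathway genes to 4, where 7.25% of all genes had a trend. Leaving out B1 raised it to 21, where 48.0% did. After rescaling by the median of ratios it was 10, where 25.9% of all genes had a trend.
Among 3 other receptors tested, only Htr1d, a Gi-coupled relative of Htr1b, had a trend, against 34.5% of all genes. Htr1d had 0.194 FPKM in A, 0.0423 in D, 0.246 in E and 1.94 in F, with a fitted difference of F from A of 2.08 ± 0.43 on the log2 scale (limma adjusted p = 0.00853). Htr6 had 1.67 to 3.21 FPKM and did not pass (limma adjusted p = 0.750). The gene Htr3b, whose product pairs with that of Htr3a, was listed at no more than 0.00929 FPKM.
Of the genes that make, move or degrade serotonin, 3 of 7 tested had a trend, against 34.5% of all genes. Ddc, the decarboxylase of serotonin and dopamine synthesis, had 0.671 FPKM in A and 5.40 in F (limma adjusted p = 0.00869). Maoa, which degrades serotonin, had 1.85 FPKM in A and 7.96 in F (limma adjusted p = 0.0104). Slc29a4, a low-affinity monoamine transporter, had 4.86 FPKM in A and 0.722 to 1.62 elsewhere (limma adjusted p = 0.0470). The summed meninges markers were also highest in A, though Lum among them was highest in D, at 0.285 FPKM. Their part in the Slc29a4 value was not tested. Slc6a4, the serotonin transporter of raphe neurons, was above 0 in B2 alone.
Among the G protein alpha subunits 5 of 9 had a trend, against 34.5% of all genes. Gnai1 had 19.7 FPKM in A and 70.9 in F (limma adjusted p = 0.0158), Gnai3 1.83 and 10.3 (adjusted p = 0.0128) and Gnal 12.8 and 45.4 (adjusted p = 0.0085). Gna11, of the Gq family, had 59.3 FPKM in A and 37.5 in F (limma adjusted p = 0.0498), and Gnai2, the fifth, was high at both ends, with 86.9 and 92.0 FPKM. Of 12 effectors 3 had a trend, 25% against 34.5% of all genes. They were Kcnj3, a subunit of the potassium channels that Gi-coupled receptors open, and the adenylyl cyclases Adcy1 and Adcy3. In each, F was fitted above A, but Kcnj3 had 11.4 FPKM in A and 32.2 to 41.4 in the other libraries. The other potassium channel genes listed, Kcnj6 and Kcnj9, had no trend. The fitted difference of F from A was 0.77 ± 0.38 on the log2 scale for Kcnj6 (limma adjusted p = 0.194). For Kcnj9 it was -0.59 ± 0.35 (limma adjusted p = 0.193). Adcy1 was 40.0 FPKM in A and 132 in E. Of 6 partners of the receptors 3 had a trend, against 34.5% of all genes. Mpdz, which binds Htr2c, had 3.62 FPKM in A and 16.1 in F (limma adjusted p = 0.00889). Adar, an enzyme that edits transcripts, and Ric3, a chaperone of Htr3a, also had a trend.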

How the data were processed

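The authors mapped paired reads to mm9 with TopHat 1.0.13 and estimated FPKM of Ensembl release 57 genes and transcripts, with 95% intervals, in Cufflinks 0.8.3. The deposited FPKM are linear and scaled for model length and mapped fragments. The coverage signal deposited for transcripts, divided by FPKM, gave the fragment estimate of a library. For a gene, coverage was multiplied by transcript length and divided by the bases of 2 reads of 50 bases. Both estimates are approximate. The 12 samples from dorsal and lateral cortex were not used here. Symbols were taken from GENCODE M21 by identifier. Genes without a line in a library were set to 0.

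Trends were fitted with limma 3.58.1 in R 4.3.3 over the 17844 genes averaging 0.1 FPKM or more, with Benjamini-Hochberg adjustment over all of them. A fold change on the log2(FPKM + 0.1) scale understates the change of low genes. A step into or out of B was called only where B1 and B2 both did not overlap the neighbour. Named genes were the 9 receptors, the genes of lists written by hand, and the 2 genes most correlated with each receptor among genes averaging 1 FPKM or more and a widest interval of at most 50% of it. A gene that this rule names is not reported here. The receptors and lists were chosen with earlier results of these data known. The p-values set the fitted curve against the scatter of the libraries around it, with 4 residual degrees of freedom. The replicates of B give 1 of these, and the rest are departures of the segments from the curve. Alternatives varied the pseudocount, filter, scaling, GC content, libraries and terms. Those leaving out library A for the folds or Htr1b for the count, or adding the antisense gene, were chosen after seeing the data.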

Additional observations from a re-analysis of the deposited data

How the results depend on the processing

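The number of receptors with a depth trend, 7 as reported, was 4 with a pseudocount of 0.01 and 4 with every listed gene tested. The shares of all genes with a trend were then 31.4% and 25.4%, against 34.5% as reported. The count was also 4 with scaling to genes outside the mitochondrial genome and with GC content removed, against 26.5% and 23.6% of all genes. With GC content removed the 4 were Htr1a, Htr1b, Htr1f and Htr7, the last not called as reported. Under a limit of 50% on the interval width it was 4 of the 5 tested, against 43.5%. It was 1 with the linear term only, against 12.9%, and 2 to 7 when each library was left out in turn, against 7.25% to 48.0%. The moderated F-test across the 6 segments in limma called 0, with 8 of 9 receptors at an unadjusted p under 0.05. Over all 17844 genes it called 0 as well (lowest adjusted p 0.304), and 2904 had an unadjusted p under 0.05. Its spread rests on the B replicates, which leave 1 residual degree of freedom, so the count says nothing of the receptors. The pathway genes with a trend, 15 as reported, were 8 with GC content removed, 6 with the linear term only, 0 across the 6 segments (8 at an unadjusted p under 0.05) and 4 to 21 with each library left out. For these pathway counts, the shares over all genes are those given above for the receptors. The steps called fell from 29 to 18 with intervals widened 2 times, where the share over all genes fell from 33.6% to 18.6%.

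The inhibitory share in A and E was 36.4% and 59.8% with GC content removed, and 35.8% and 59.4% with the antisense gene added to Htr1b. Leaving out 1 receptor gave, for A and E, 25.7% and 44.3% without Htr1a, 32.1% and 57.6% without Htr1b, 33.0% and 52.7% without Htr1f, 18.5% and 50.2% without Htr5a, 36.4% and 81.6% without Htr2a, 35.0% and 61.6% without Htr2c, 34.1% and 59.1% without Htr4, 51.5% and 61.5% without Htr7, and 43.1% and 61.1% without Htr3a.

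The fitted log2 difference of F from A changed sign in 10 of the alternatives. Without A or F, it extends the fitted curve to a segment with no library. For Htr1b it was -0.17 with GC content removed and -0.60 without F. For Htr5a it was -0.13 after median of ratios scaling, -0.38 with GC content removed, -0.29 without A and -0.09 without F. For Htr2a it was -0.08 without A and -0.38 without F, and for Htr3a 0.06 without B1 and 0.63 without F. With each library left out in turn it spanned -0.60 to 0.92 for Htr1b, -0.29 to 0.43 for Htr5a, -0.38 to 2.44 for Htr2a and -0.24 to 0.63 for Htr3a. The cause was not tested. Htr7 is not among the 7 receptors reported with a trend. It passed in 3 of its 18 alternatives, with GC content removed, without A and without F. No paired analysis was possible because only segment B has more than 1 library. Low depth limits Htr4 throughout, Htr1b and Htr1f in A and Htr3a in C.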

Other observations

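Transcripts of Htr2c differed in listing between the libraries. ENSMUST00000036303 was listed in all 7, with 0.311 FPKM in A and 1.78 in C, and ENSMUST00000156697 only in B2, D, E and F, with 0.217, 0.867, 0.385 and 0.216 FPKM. The interval of the latter reached 0 in E and F. In C the whole of the Htr2c value was thus assigned to 1 transcript, and in D and F to 3. In F, 0.384 of the 1.20 FPKM was assigned to ENSMUST00000112831, a model of 809 bases listed in F alone. Its interval ran from 0.0267 to 0.742 FPKM.

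The enzymes that start serotonin synthesis were both low. Tph2, the form of raphe neurons, had 0.215 FPKM in E to 0.695 in B2, without a depth trend (limma adjusted p = 0.515). Tph1 was listed at 0 in A, B1 and B2 and at 0.210 FPKM in F, and was under the limit on mean FPKM.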
